A study of Mus musculus with 12 samples.

Results

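Genes that encode the enzymes and membrane proteins of lysosomes were followed in mouse spinal cord white matter, without injury and during demyelination, in young and in middle-aged mice. The set holds 41 genes out of 46078 gene identifiers counted, and was given by name: 9 cysteine cathepsins with legumain, 4 aspartic and serine proteases, 10 enzymes and helper proteins of lipid breakdown, 8 glycosidases with arylsulfatase B, 7 membrane proteins, and 3 regulators (Tfeb, Tfe3 and Grn). The 41 genes lay on 18 chromosomes, and all 41 passed the filter on low counts, Ctse only through pools of injured mice. The mice were C57Bl6, the labels name no transgene, and injured animals had received lysolecithin, a detergent-like lipid that strips myelin, in the ventrolateral white matter. Both ages were sampled without injury (naïve) and with it, which made 4 groups of 3 samples; the study's methods give the ages as 6 weeks and 8 months, the time after injury as 72 h, and each sample as RNA pooled from 5 mice, cut from the white matter by laser capture microdissection. A replicate is therefore a pool, and the p-values measure the spread between pools.

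Lysosomes are acidic organelles in which cells break down proteins, lipids and sugars taken up from outside or delivered by autophagy. Their enzymes are tagged with mannose 6-phosphate, carried by sorting receptors and matured by proteolysis, while a proton pump (the V-ATPase) keeps the lumen acid and glycosylated membrane proteins line the wall. In white matter, macrophages and microglia that engulf myelin pass a lipid-rich load to their lysosomes, and inherited loss of enzymes such as galactosylceramidase (Galc) or arylsulfatase A (Arsa) causes leukodystrophies.

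Levels are given as CPM, counts scaled by library size and trimmed mean of M-values (TMM) factors, and differences as log2 fold changes with their SE from edgeR's quasi-likelihood test with Benjamini-Hochberg adjustment over 15866 genes; a gene was called at an adjusted p under 0.05. Each pool held between 9834447 and 12807437 counts, so that 3 counts corresponded to 0.220 to 0.323 CPM. The dissected tissue carried its defining transcripts: 6 oligodendrocyte markers summed to between 53010 and 102000 CPM in the naïve pools. In the injured pools the same sum was 7930 to 20260 CPM, and all 6 markers fell at both ages. Injury called 54.6% of all genes tested in young and 58.5% in middle-aged mice. With library totals in place of TMM the young comparison gave 5380 genes higher and 3236 lower, against 4483 and 4177, and the median log2 fold change of all genes was 0.20 in place of 0.00; changes of about that size are read against this shift.

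Injury raised most lysosomal genes. The 41 genes were chosen with earlier results of these data known, so the shares of all genes beside them give a scale and no test. In young mice 32 of the 41 rose and 4 fell, where 28.3% of all genes rose and 26.3% fell. In middle-aged mice 33 rose and 2 fell, where 29.2% of all genes rose and 29.3% fell. The same 32 genes rose at both ages, and none was called in opposite directions. These joint counts were not made for all genes. The share of all genes that rose at both ages cannot exceed the 28.3% of young mice. The median log2 fold change over the 41 genes was 1.92 in young and 2.04 in middle-aged mice, beside medians of 0.00 and -0.03 over all genes tested. Of the 41 genes, 20 in young and 21 in middle-aged mice rose by at least 2 on the log2 scale, a size reached by 10.9% and 10.3% of all genes. The pools of naïve and injured mice did not overlap for 37 genes in young and 36 in middle-aged mice, as was true of 67.2% and 61.1% of all genes. In whole tissue, fewer cells of a type and less RNA per cell cannot be told apart, and the same holds for more cells and more RNA.

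**Figure D1:**
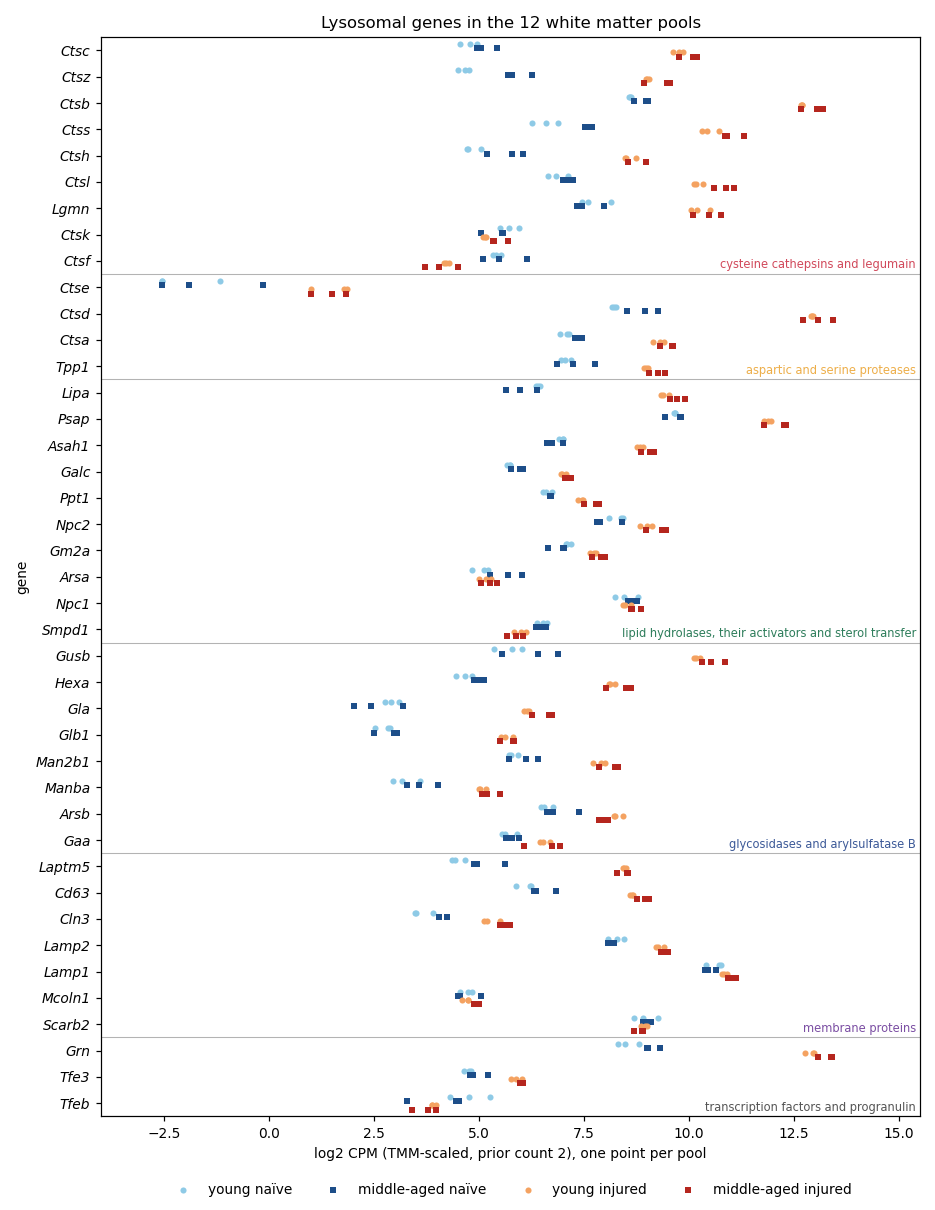
Level of each of the 41 genes (rows, grouped by role) in every pool, as log2 CPM with a prior count of 2 on the horizontal axis; circles are young and squares middle-aged pools, blue without and orange or red with injury. Injured pools lie to the right of naïve pools for most rows, overlap them for Npc1, Arsa and Mcoln1, and lie to the left for Ctsf and Smpd1.

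Added together, the 41 transcripts took 0.588% to 0.706% of all counts in the young naïve pools and 0.659% to 0.768% in the middle-aged naïve pools. After injury they took 4.26% to 4.54% in young and 4.27% to 5.80% in middle-aged mice. The summed level was 5.95-fold that of naïve tissue in young and 6.66-fold in middle-aged mice. A few genes carried this sum. Ctsb, Ctsd and Grn together held 15.3% of it in young naïve and 20.1% in middle-aged naïve pools, and 53.3% and 53.4% after injury.

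**Figure D2:**
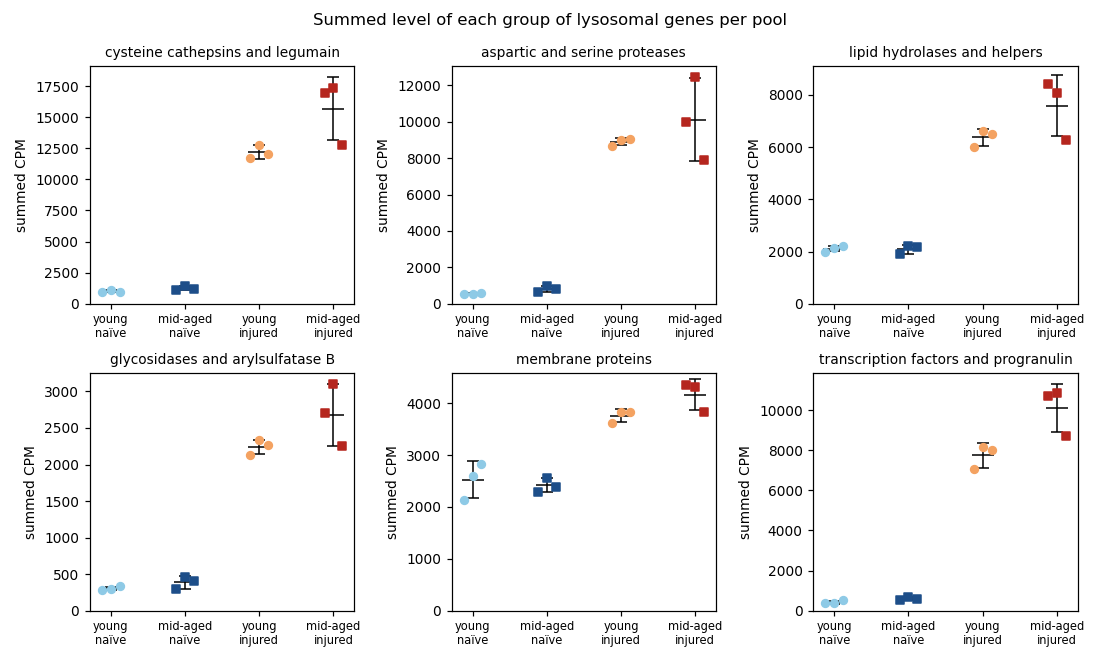
Summed CPM of the genes of each role group, 1 point per pool, with the mean and 1 SD (n = 3 pools per group) as black bars; every vertical axis starts at 0. In all 6 panels each injured pool is above each naïve pool; membrane proteins, at 3623 to 4357 against 2142 to 2836 CPM, show the smallest gap.

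Middle-aged injured pool 3 had the lowest sum of the middle-aged injured pools in all 6 role groups. Its 6 oligodendrocyte markers summed to 12450 CPM, against 9171 and 7930 CPM in the other middle-aged injured pools, and its 8 myeloid markers to 1092 CPM, against 1446 and 1460 CPM. The part of tissue makeup in these differences was not tested.

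Known promoter elements were looked up for context. The transcription factors TFEB and TFE3, both members of the set, bind an E-box with the core CACGTG in promoters of lysosomal genes. RefSeq promoter windows (GRCm38.p6, from 250 bases before to 50 after each annotated start) were at hand for 36 of the 41 genes, in 43 windows; Ctsb, Ctsh, Ctse, Npc1 and Asah1 were not matched. CACGTG, which reads the same on both strands, was in 12 of the 43 windows (27.9%), in 7.15% of all windows, and in 9.45% of the windows of genes that passed the count filter. The longer TCACGTGA, which contains it, was in 5 windows (11.6%), against 0.974% of all windows and 1.70% of the windows of genes that passed the filter. Stretches of 30 bases are shown for genes that rose (Ctsd, Gla and Glb1), that were called at one age or none (Lamp1 and Mcoln1) and that fell (Ctsf), with the core in capitals, each read 5′ to 3′ along the gene.
Ctsd: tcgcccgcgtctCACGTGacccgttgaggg
Gla upstream: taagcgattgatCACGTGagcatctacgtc
Gla downstream: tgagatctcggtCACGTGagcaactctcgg
Glb1: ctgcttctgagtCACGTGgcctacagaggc
Lamp1: tggtccagcgccCACGTGatgccgactggc
Mcoln1: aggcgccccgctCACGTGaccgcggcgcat
Ctsf: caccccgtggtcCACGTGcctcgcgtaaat

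These stretches lie at chr7:142387908-142387937 on the minus strand (Ctsd), chrX:134601215-134601244 and chrX:134601182-134601211 on the minus strand (Gla), chr9:114401018-114401047 on the plus strand (Glb1), chr8:13159104-13159133 on the plus strand (Lamp1), chr8:3500462-3500491 on the plus strand (Mcoln1) and chr19:4855074-4855103 on the plus strand (Ctsf), all before the RefSeq start of their window. Against the GENCODE gene bounds, the stretches of Ctsd and Mcoln1 lie just inside the gene and the others outside it. The 12 genes with CACGTG had median log2 fold changes of 1.94 in young and 1.79 in middle-aged mice, and the 24 without it 1.87 and 1.77. Genes with the motif ranged from Ctsf at -1.21 to Ctsd at 4.71 in young mice. A second element, GAGGAAGT, to which the myeloid factor PU.1 can bind, was looked for on both strands and found in 4 windows (9.30%), those of Ctsc, Ctss, Gla and Gusb, and in 3.20% of all windows. The stretch of Ctsc, a gene that rose at both ages, holds it on the opposite strand, in capitals, at chr7:88277923-88277952.
Ctsc: gtcactaactaACTTCCTCaggccacctcg

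Cysteine cathepsins are papain-like proteases, and legumain (Lgmn) is the asparaginyl endopeptidase that matures several of them. Of these 9 genes, 7 rose at both ages, Ctsf fell at both, and Ctsk was called lower in young mice. Among all genes 28.3% rose and 26.3% fell in young mice, and 29.2% and 29.3% in middle-aged mice. The median log2 fold change of the 9 was 3.74 in young and 3.41 in middle-aged mice. Ctsc, which encodes the dipeptidyl peptidase that activates granule serine proteases, measured 27.5, 30.8 and 23.0 CPM in the young naïve pools and 921, 789 and 869 CPM in the young injured pools. In middle-aged mice its level was 43.0, 32.8 and 30.97 CPM without injury and 1089, 1159 and 866 CPM with it. No injured pool came near a naïve pool. The log2 fold change of Ctsc was 4.98 ± 0.18 (SE, n = 3 pools per group) in young and 4.87 ± 0.18 in middle-aged mice (adjusted p = 7.05e-11 and 9.22e-11).

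Ctsb (14:63122462-63145923 on GRCm38, 10 merged exons), a broadly expressed endopeptidase, read 395, 378 and 387 CPM in young naïve and 6448, 6574 and 6629 CPM in young injured pools. In middle-aged mice it read 409, 518 and 505 CPM and, after injury, 8491, 9308 and 6488 CPM. Its log2 fold change was 4.08 ± 0.15 at each age (adjusted p = 1.03e-10 and 1.02e-10). The young pools differed among themselves by far less than the middle-aged injured ones, whose SD was 1451 CPM beside 92.7 CPM in young injured pools. Ctsz, a carboxypeptidase, changed by 4.37 ± 0.20 in young and 3.41 ± 0.19 in middle-aged mice, and Ctss, the cathepsin of antigen-presenting cells that trims the invariant chain, by 3.90 ± 0.19 and 3.45 ± 0.18. Ctsh, an aminopeptidase, changed by 3.74 ± 0.21 and 3.14 ± 0.20. The endopeptidase Ctsl changed by 3.33 ± 0.16 and 3.75 ± 0.16, and Lgmn by 2.50 ± 0.23 and 2.86 ± 0.23.

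Ctsf and Ctsk moved away from their relatives. Ctsf, a cathepsin that is widely expressed, stood at 45.7, 42.2 and 39.9 CPM in young naïve pools and at 17.8, 18.4 and 19.2 CPM in young injured pools. In the middle-aged mice it stood at 34.2, 70.2 and 44.1 CPM, and at 16.4, 22.3 and 12.9 CPM after injury. All injured pools were below all naïve pools of both ages, and the log2 fold change was -1.21 ± 0.24 in young and -1.52 ± 0.24 in middle-aged mice (adjusted p = 0.000672 and 8.56e-05). Ctsk, the collagen-degrading cathepsin of osteoclasts, went from 44.7, 52.0 and 61.9 CPM to 35.7, 35.3 and 33.9 CPM in young mice. Its middle-aged pools overlapped, at 47.6, 46.6 and 32.6 CPM without and 51.1, 40.6 and 40.1 CPM with injury. The young fold change was -0.60 ± 0.17 (adjusted p = 0.00836) and the middle-aged one 0.06 ± 0.17 (adjusted p = 0.788); with library totals the young value was -0.40 with an adjusted p of 0.0581, and the difference between the ages was not called (0.66 ± 0.24, adjusted p = 0.358).

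Ctsk and Ctss are neighbours on chromosome 3 (95499256-95509362 and 95526786-95556403, both on the plus strand), 17423 bases apart with 0 other counted genes between them. Per kilobase of transcript, the level of Ctss was 2.03 ± 0.11 times that of Ctsk (SD, n = 3) in young naïve pools and 45.9 ± 6.9 times in young injured pools. In middle-aged mice this ratio went from 5.19 ± 0.97 to 53.1 ± 1.9. The ranges were 1.90 to 6.25 over all naïve pools and 39.3 to 55.1 over all injured pools, without overlap.

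The 4 aspartic and serine proteases rose at both ages, where 28.3% of all genes rose in young and 29.2% in middle-aged mice. Their median log2 fold change was 3.47 in young and 2.72 in middle-aged mice. Ctsd (7:142375911-142388038, minus strand, 9 merged exons), the main aspartic protease of lysosomes, gave 297, 289 and 308 CPM in young naïve pools and 7610, 7800 and 7919 CPM in young injured pools. The middle-aged pools gave 365, 609 and 497 CPM before and 8558, 10970 and 6723 CPM after injury. Its level rose 26.1-fold in young and 17.9-fold in middle-aged mice by the ratio of mean CPM, with log2 fold changes of 4.71 ± 0.21 and 4.16 ± 0.21 (adjusted p = 4.45e-10 and 1.14e-09). Ctsa, the carboxypeptidase that protects beta-galactosidase and neuraminidase, changed by 2.23 ± 0.12 and 2.13 ± 0.12. Tpp1, the tripeptidyl peptidase lost in the late infantile form of neuronal ceroid lipofuscinosis, had the smallest change of the 4. It read 132, 124 and 145 CPM in young naïve and 504, 522 and 487 CPM in young injured pools, and 116, 217 and 149 CPM against 613, 690 and 527 CPM in middle-aged mice, a change of 1.92 ± 0.19 and 1.93 ± 0.19.

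Ctse, an aspartic protease of immune and gastric cells, was close to absent from naïve tissue. The young naïve pools held 0, 3 and 0 counts and the middle-aged naïve pools 1, 7 and 0, while injured pools held 25, 42 and 46 counts in young and 41, 33 and 21 in middle-aged mice. The ratio of summed counts, each set against its library totals, was 34.0 (exact 95% interval 11.3 to 167.2) in young and 11.5 (5.60 to 27.4) in middle-aged mice; these intervals cover counting error only. By edgeR the fold changes were 4.76 ± 0.96 and 3.30 ± 0.83 on the log2 scale (adjusted p = 0.00071 and 0.00334), with the largest SE of the set. Ctse passed the count filter only through its injured pools, where it was high. Its calls, which are counted among the genes that rose, are therefore not independent of that filter. Without middle-aged naïve pool 2, which held 7 of the 8 counts of its group, the middle-aged value of Ctse was 5.60, and without young naïve pool 2 no count was left in the young naïve pools.

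**Figure D3:**
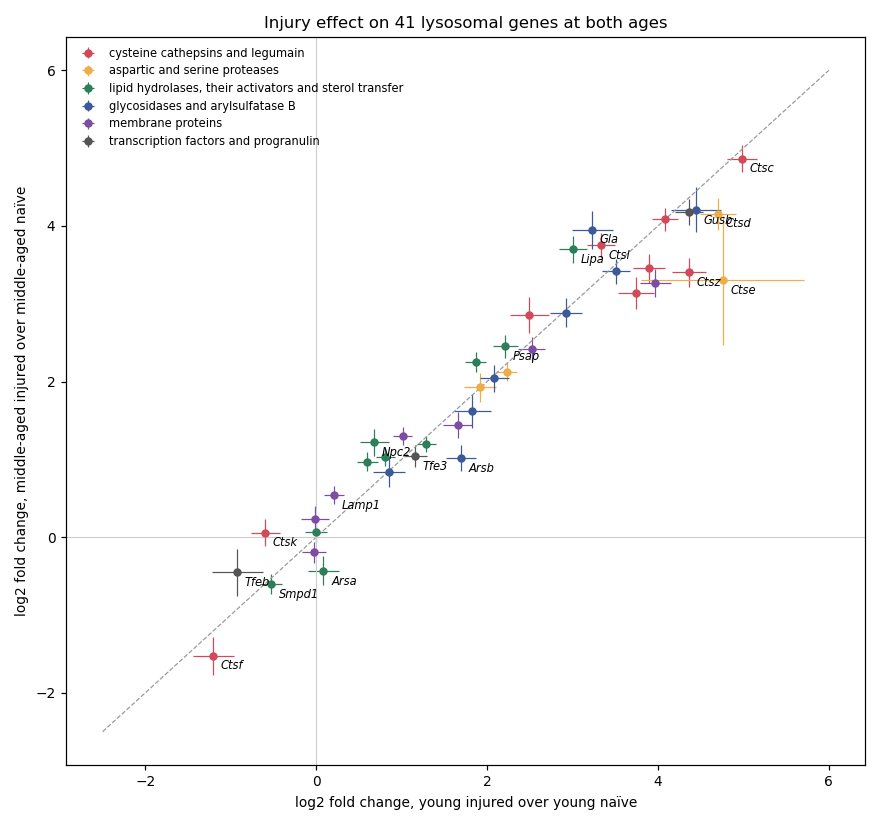
Log2 fold change on injury in young mice (horizontal) and middle-aged mice (vertical) for the 41 genes, coloured by role, with bars of 1 SE; the dashed line marks equal change. Genes lie along the line from Ctsf at -1.21 and -1.52 to Ctsc at 4.98 and 4.87. Farthest below it are Ctse, Ctsz, Laptm5, Arsb and Ctsh, and farthest above it Gla, Lipa and Ctsk.

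In the lipid group 7 of 10 genes rose at both ages, Smpd1 fell at both, and Npc1 and Arsa were called at neither. Beside them, 28.3% of all genes rose and 26.3% fell in young mice, and 29.2% and 29.3% in middle-aged mice. The group medians were 0.74 in young and 1.11 in middle-aged mice. Lipa, the acid lipase that frees cholesterol from its esters, had the largest change. Its level was 84.2, 87.3 and 81.2 CPM in young naïve and 639, 663 and 731 CPM in young injured pools. In middle-aged mice it was 62.4, 50.1 and 83.3 CPM and then 958, 837 and 753 CPM. The log2 fold change was 3.01 ± 0.17 in young and 3.70 ± 0.17 in middle-aged mice (adjusted p = 3.48e-09 and 6.18e-10). The lowest injured pool, at 639 CPM, stood far above the highest naïve pool, at 87.3 CPM.

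Psap (10:60277627-60302597, 17 merged exons) encodes prosaposin, which is cleaved into the saposins that present sphingolipids to their hydrolases, and per kilobase it had the highest level of the lipid group in all 4 groups of pools. The young naïve pools read 815, 803 and 808 CPM and the young injured pools 3543, 3972 and 3751 CPM. The middle-aged pools read 685, 882 and 894 CPM without and 5073, 4863 and 3530 CPM with injury. Psap changed by 2.22 ± 0.15 in young and 2.45 ± 0.15 in middle-aged mice. Acid ceramidase (Asah1) changed by 1.87 ± 0.12 and 2.25 ± 0.13, and Galc, which removes galactose from the myelin lipid galactosylceramide, by 1.29 ± 0.11 and 1.20 ± 0.11. The thioesterase Ppt1 changed by 0.81 ± 0.11 and 1.03 ± 0.11, and the GM2 activator Gm2a by 0.60 ± 0.12 and 0.97 ± 0.12.

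The sterol carriers Npc2 and Npc1 hand cholesterol from the lumen to the membrane. Npc2, the soluble carrier, rose from 272, 334 and 344 CPM to 458, 558 and 509 CPM in young mice and from 225, 340 and 234 CPM to 696, 654 and 506 CPM in middle-aged mice, a log2 fold change of 0.68 ± 0.17 and 1.22 ± 0.17 (adjusted p = 0.00343 and 2.79e-05). Npc1, the membrane carrier, read 303, 352 and 441 CPM in young naïve and 343, 358 and 392 CPM in young injured pools. Its middle-aged pools read 374, 389 and 435 CPM and 460, 401 and 392 CPM. Naïve and injured pools of Npc1 overlapped at both ages, with log2 values of -0.00 ± 0.13 and 0.06 ± 0.13 (adjusted p = 0.987 and 0.708), and the sign of the young value turned with other settings. The per-kilobase ratio of Npc2 to Npc1 went from 1.39 ± 0.14 to 2.21 ± 0.22 (SD, n = 3) in young mice, and from 1.06 ± 0.28 to 2.34 ± 0.28 at middle age.

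Acid sphingomyelinase and arylsulfatase A stood apart from the rest of the group. Smpd1, which encodes the first and splits sphingomyelin, went from 83.0, 91.7 and 98.6 CPM to 57.1, 63.6 and 69.0 CPM in young mice. In middle-aged mice it went from 81.7, 87.9 and 95.6 CPM to 58.9, 65.7 and 50.2 CPM. No injured pool reached a naïve one, and the log2 fold change was -0.53 ± 0.13 in young and -0.60 ± 0.13 in middle-aged mice (adjusted p = 0.00343 and 0.00124). Arsa, whose product removes the sulfate from the myelin lipid sulfatide, stood at 28.4, 34.5 and 36.7 CPM and at 31.6, 38.5 and 35.5 CPM in young naïve and injured pools. In middle-aged mice it stood at 37.9, 64.4 and 51.1 CPM and at 38.3, 42.7 and 32.6 CPM. The pools overlapped at both ages and Arsa was not called (0.09 ± 0.19 and -0.43 ± 0.19, adjusted p = 0.726 and 0.0584). Without middle-aged naïve pool 1 the middle-aged value was -0.60 with an adjusted p of 0.00807. Arsa overlaps the opposite-strand gene C230037L18Rik over 690 exonic bases, and that gene changed by -2.33 and -2.72.

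All 8 genes of the glycosidase group rose at both ages, where 28.3% of all genes rose in young and 29.2% in middle-aged mice. The group medians were 2.51 in young and 2.46 in middle-aged mice. Gusb, which encodes beta-glucuronidase of glycosaminoglycan breakdown, showed 40.5, 54.8 and 64.6 CPM in young naïve and 1105, 1223 and 1155 CPM in young injured pools. In middle-aged mice it showed 46.3, 117 and 84.7 CPM and then 1474, 1842 and 1264 CPM. The gene rose by 4.45 ± 0.29 and 4.21 ± 0.29 on the log2 scale (adjusted p = 1.74e-08 and 2.19e-08). Hexa, the alpha subunit of beta-hexosaminidase, changed by 3.51 ± 0.17 and 3.42 ± 0.16. Gla, alpha-galactosidase A, changed by 3.23 ± 0.24 and 3.95 ± 0.25 from naïve levels of 3.88 to 8.96 CPM, and Glb1, beta-galactosidase, by 2.93 ± 0.19 and 2.89 ± 0.19 from 5.47 to 8.08 CPM.

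The alpha-mannosidase gene Man2b1 changed by 2.08 ± 0.17 and 2.04 ± 0.17, and the beta-mannosidase gene Manba by 1.83 ± 0.22 and 1.62 ± 0.22. Arsb, the sulfatase of dermatan sulfate, changed by 1.70 ± 0.17 and 1.02 ± 0.17. It overlaps the opposite-strand gene Gm26527 over 1948 exonic bases, whose fold changes were 1.67 and 1.01, and reads of these genes cannot be told apart where the counting is not known to use strand. Gaa, the acid glucosidase of glycogen, had the smallest change of the group. Its level was 60.0, 49.2 and 46.5 CPM in young naïve and 91.0, 87.6 and 102.6 CPM in young injured pools, and 49.3, 54.5 and 62.1 CPM against 105.8, 121.9 and 67.4 CPM in middle-aged mice. Gaa changed by 0.85 ± 0.19 and 0.83 ± 0.19 (adjusted p = 0.00143 and 0.00157), and its injured pools stayed above its naïve pools at both ages.

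Hexosaminidase needs the GM2 activator to reach ganglioside GM2, and the per-kilobase ratio of Hexa to Gm2a went from 0.375 ± 0.066 to 2.80 ± 0.11 in young mice. In middle-aged mice it went from 0.564 ± 0.133 to 2.98 ± 0.33 (SD, n = 3). Naïve pools spanned 0.306 to 0.717 and injured pools 2.60 to 3.19.

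Among the 7 membrane proteins, Laptm5, Cd63, Cln3 and Lamp2 rose at both ages, Lamp1 in middle-aged mice, and Scarb2 and Mcoln1 at neither. The part that rose was 57.1% in young and 71.4% in middle-aged mice, beside 28.3% and 29.2% of all genes. The median log2 fold change was 1.01 in young and 1.30 in middle-aged mice. Laptm5, a lysosomal transmembrane protein of blood-derived cells, gave 20.4, 25.1 and 21.4 CPM in young naïve and 347, 341 and 362 CPM in young injured pools. Middle-aged pools gave 30.9, 48.9 and 29.4 CPM and then 366, 371 and 314 CPM, so that the log2 fold change was 3.97 ± 0.19 in young and 3.27 ± 0.18 in middle-aged mice (adjusted p = 6.49e-10 and 2.55e-09). The tetraspanin Cd63 changed by 2.52 ± 0.16 and 2.41 ± 0.16, and Cln3, the membrane protein of juvenile neuronal ceroid lipofuscinosis, by 1.65 ± 0.17 and 1.44 ± 0.16. Cln3 overlaps the opposite-strand gene Apobr over 442 exonic bases, which changed by 3.89 and 2.86. Lamp2, needed for fusion of autophagosomes with lysosomes, changed by 1.01 ± 0.12 and 1.30 ± 0.12.

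Lamp1 (8:13159161-13175338, plus strand), the most used marker of the lysosomal membrane, had the highest per-kilobase level of the 41 genes in naïve tissue, 710 ± 93 CPM per kb in young and 648 ± 63 in middle-aged mice (SD, n = 3). Its pools read 1348, 1663 and 1739 CPM in young naïve and 1755, 1922 and 1815 CPM in young injured mice. In the middle-aged groups they read 1325, 1598 and 1408 CPM and 2236, 2120 and 1945 CPM. The young pools did not overlap but the change was not called (0.21 ± 0.12, adjusted p = 0.156), while the middle-aged change was (0.54 ± 0.12, adjusted p = 0.00141). With library totals the young value was 0.41 (adjusted p = 0.00845), and the difference between the ages was not called (0.33 ± 0.17, adjusted p = 0.557).

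Scarb2, the sorting receptor of glucocerebrosidase, measured 411, 477 and 615 CPM in young naïve and 465, 498 and 513 CPM in young injured pools. It measured 523, 482 and 549 CPM in middle-aged naïve and 467, 480 and 412 CPM in middle-aged injured pools. The log2 values of Scarb2 were -0.03 ± 0.14 and -0.19 ± 0.14 (adjusted p = 0.886 and 0.237), although the middle-aged pools did not overlap. Mcoln1, the calcium channel of the lysosomal wall, lay between 22.5 and 33.1 CPM in all 12 pools, with log2 values of -0.02 ± 0.17 and 0.24 ± 0.17 (adjusted p = 0.939 and 0.231). With library totals the young values of Scarb2 and Mcoln1 were positive, 0.17 and 0.18, which is less than the shift of all genes under that scaling. Set per kilobase against Lamp1, Ctsd went from 0.200 ± 0.027 to 4.46 ± 0.18 in young mice, and from 0.352 ± 0.057 to 4.35 ± 0.95 at middle age, while Lamp2 went from 0.121 ± 0.005 to 0.212 ± 0.018 and from 0.123 ± 0.017 to 0.205 ± 0.007 (SD, n = 3).

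Grn (11:102430315-102437048, 10 merged exons) encodes progranulin, a secreted protein that is carried to lysosomes and cut there into granulins. It read 317, 353 and 448 CPM in young naïve and 6985, 8102 and 7917 CPM in young injured pools. Middle-aged pools read 511, 629 and 522 CPM and then 10610, 10790 and 8633 CPM. The rise was 20.6-fold in young and 18.1-fold in middle-aged mice by mean CPM, with log2 fold changes of 4.36 ± 0.17 and 4.18 ± 0.17 (adjusted p = 1.16e-10 and 1.6e-10). Per kilobase, Grn and Ctsd had the highest levels of the set after injury, 3277 ± 256 and 3656 ± 73 CPM per kb in young and 4278 ± 511 and 4115 ± 1002 in middle-aged mice; the middle-aged ranges of these genes overlapped.

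The transcription factors moved apart. Tfe3 rose from 26.7, 27.9 and 24.7 CPM to 53.9, 64.5 and 58.7 CPM in young mice and from 27.2, 37.0 and 29.0 CPM to 65.9, 62.4 and 63.2 CPM in middle-aged mice, by 1.16 ± 0.14 and 1.04 ± 0.14 on the log2 scale (adjusted p = 7.03e-06 and 1.61e-05). Tfeb gave 19.7, 26.9 and 38.3 CPM in young naïve and 14.5, 14.5 and 15.7 CPM in young injured pools. Its middle-aged pools gave 9.503, 21.51 and 22.96 CPM and 13.61, 15.49 and 10.45 CPM. The young fall was called (-0.92 ± 0.30, adjusted p = 0.0173) and the middle-aged value was not (-0.45 ± 0.30, adjusted p = 0.219). The young call rested on single pools: without young naïve pool 3 the value was -0.64 (adjusted p = 0.0992), without young injured pool 1 it was -0.90 (adjusted p = 0.0533), and without young injured pool 2 it was -0.90 (adjusted p = 0.0543). Without middle-aged naïve pool 1 the middle-aged value was -0.75 (adjusted p = 0.019).

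The other genes of the pathway were taken as lists. Of all genes tested, 28.3% rose and 26.3% fell in young mice, and 29.2% rose and 29.3% fell in middle-aged mice. Of 27 other lysosomal enzymes, 22 rose, 1 fell and 4 were not called in young mice, with a median log2 fold change of 1.66; in middle-aged mice 24 rose, 1 fell and 2 were not called, with a median of 1.85. Ifi30, the thiol reductase that unfolds antigens, changed by 5.88 ± 0.24 and 5.01 ± 0.21, from a mean of 1.06 CPM to 62.8 CPM in young mice. Acp5, the tartrate-resistant acid phosphatase, had 0 counts in all 3 young naïve pools and 316 to 378 in the young injured pools, at least 88.9-fold higher when the naïve level is set to 3 counts per pool. Hgsnat, the acetyltransferase of heparan sulfate breakdown, was the enzyme that fell in young mice, by 0.47 ± 0.14 (adjusted p = 0.0119), and had -0.33 ± 0.14 in middle-aged mice (adjusted p = 0.0606). In middle-aged mice the one that fell was Ids, iduronate sulfatase, which was named after its values were seen (-0.49 ± 0.17, adjusted p = 0.0256).

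Subunits of the proton pump had lower medians than each of the enzyme groups. Of 17 V-ATPase genes, 7 (41.2%) rose, 1 fell and 9 were not called in young mice (median 0.24). In middle-aged mice 12 (70.6%) rose, 1 fell and 4 were not called (median 0.51). Beside these, 28.3% and 29.2% of all genes rose. With library totals 14 rose and 0 fell in young mice, where 5380 of all 15866 genes rose and 3236 fell. That scaling moved the young median log2 fold change of all genes to 0.20. The highest values were those of Atp6v0d2, the subunit of osteoclasts and macrophages, with 0 to 4 counts in young naïve and 460 to 703 in young injured pools, and Atp6v0e, which changed by 1.88 ± 0.12 and 2.24 ± 0.13. Atp6v1e1, a subunit of the peripheral stalk, changed by -0.51 ± 0.14 and -0.45 ± 0.14.

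Of 19 other membrane proteins and transporters tested, 9 (47.4%) rose and 7 fell at each age, with medians of 0.35 in young and 0.28 in middle-aged mice. Beside this, 28.3% of all genes rose and 26.3% fell in young mice, and 29.2% and 29.3% in middle-aged mice. Cd68, the scavenger glycoprotein of macrophage lysosomes, changed by 6.90 ± 0.34 in young and 5.50 ± 0.31 in middle-aged mice, from means of 6.28 and 22.4 CPM to 743 and 1012 CPM. Slc11a1, the metal transporter of phagosomes, changed by 4.85 ± 0.21 and 4.29 ± 0.19. Abca2, a lipid transporter abundant in oligodendrocytes, changed by -1.85 ± 0.16 and -2.34 ± 0.16, and Lamp5, a neuronal relative of Lamp1, by -2.07 ± 0.34 and -1.72 ± 0.33.

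Of 12 genes that deliver enzymes, 7 (58.3%) rose and 2 fell in young mice and 9 (75.0%) rose and 2 fell in middle-aged mice. The shares of all genes were 28.3% rising and 26.3% falling in young mice, and 29.2% and 29.3% in middle-aged mice. Cln6, an endoplasmic reticulum protein of enzyme transport, changed by 2.12 ± 0.18 and 2.15 ± 0.18, and Nagpa, which uncovers the mannose 6-phosphate tag, by 1.79 ± 0.32 and 1.52 ± 0.32. Sortilin (Sort1) fell from a mean of 364 to 182 CPM in young mice (adjusted p = 2.64e-05) and by 1.61 ± 0.14 on the log2 scale in middle-aged mice. Gnptg, a subunit of the tagging enzyme, changed by -0.44 ± 0.14 and -0.50 ± 0.14.

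Of 16 genes of lysosomal gene control and nutrient sensing, 5 (31.2%) rose and 1 fell in young mice and 6 (37.5%) rose and 1 fell in middle-aged mice, with medians of 0.38 and 0.38; these shares are near the 28.3% and 29.2% of all genes that rose. Fnip2, a folliculin partner, changed by 3.63 ± 0.19 and 3.71 ± 0.19, and Rragc, a Rag GTPase, by 1.17 ± 0.13 and 1.14 ± 0.13. Mtor, the kinase that keeps TFEB in the cytoplasm when nutrients are plentiful, changed by -0.71 ± 0.16 and -0.52 ± 0.16. Tfec, a relative of Tfeb that was named after its values were seen, had 0 counts in young naïve pools and averaged 6.76 CPM in young injured pools, at least 23.4-fold higher against 3 counts per pool.

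Of 7 cystatins, which inhibit cysteine cathepsins, 4 passed the count filter. Cst3, cystatin C, changed by -0.43 ± 0.16 in young and -0.57 ± 0.16 in middle-aged mice (adjusted p = 0.0346 and 0.00649), and Cstb by 2.51 ± 0.19 and 2.91 ± 0.19. Cst7, the inhibitor of lymphoid and myeloid cells, went from 1 to 4 counts to 162 to 202 counts per young pool. The level of Ctsb per kilobase was 0.0995 ± 0.0044 of that of Cst3 in young naïve and 2.27 ± 0.19 times it in young injured pools, and went from 0.106 ± 0.022 to 2.59 ± 0.06 in middle-aged mice (SD, n = 3).

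**Figure D4:**
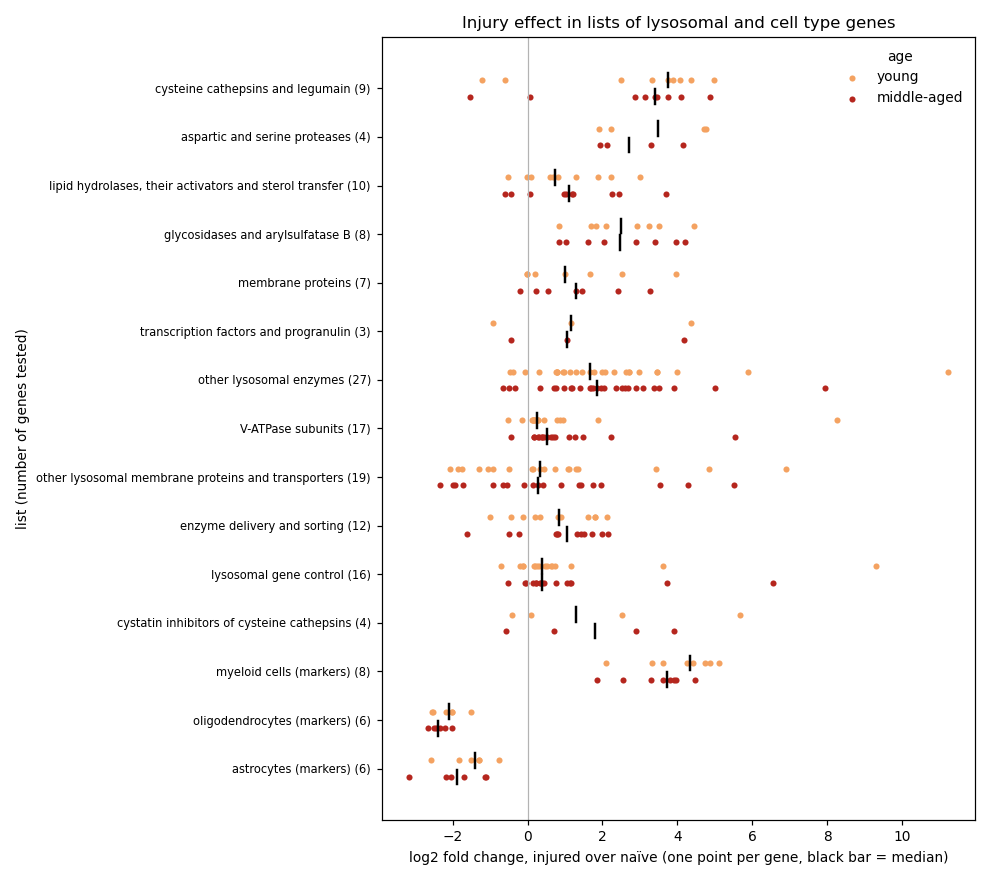
Log2 fold change on injury of every tested gene in the 6 role groups, the 6 pathway lists and 3 lists of cell type markers; orange points are young, red points middle-aged mice, and black bars mark the medians. Medians of the cathepsins (3.74 and 3.41) stand near those of the myeloid markers (4.34 and 3.72), above those of the V-ATPase (0.24 and 0.51); the points of Acp5 and Tfec in young mice are fitted values against 0 counts and give no size.

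Markers of cell types moved in both directions on injury. All 8 myeloid markers rose at both ages, with medians of 4.34 and 3.72, and their summed level was 81.3 to 111.4 CPM in young naïve, 125.0 to 159.0 CPM in middle-aged naïve, 1063 to 1123 CPM in young injured and 1092 to 1460 CPM in middle-aged injured pools. All 4 markers of recruited monocytes rose as well, from sums of 0.0907 to 0.273 CPM to 73.9 to 112.6 CPM in young mice and from 0.420 to 1.54 CPM to 163.0 to 206.4 CPM in middle-aged mice, and Ccr2 was at 0 in the young naïve pools. The 6 astrocyte markers fell at both ages (medians -1.41 and -1.87). Neutrophil markers summed to 0.181 to 0.273 CPM in young naïve and 9.94 to 17.2 CPM in young injured pools. In middle-aged mice they summed to 0 to 0.640 CPM without and 16.6 to 27.4 CPM with injury. Markers of T and B cells summed to at most 1.58 CPM in any pool. Of 4 endothelial markers, 3 (Pecam1, Kdr and Cdh5) rose at both ages. Of 4 markers of oligodendrocyte progenitors, Pdgfra and Cspg4 rose at both ages and Neu4 fell in middle-aged mice. Of 4 neuronal markers, Rbfox3 and Snap25 fell at both ages, and in middle-aged mice Syt1 fell and Slc17a6 rose. The part of these cells in the changes of lysosomal genes was not tested.

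Age was compared without injury. In middle-aged naïve tissue 6 of the 41 genes were higher and none lower than in young naïve tissue (edgeR), where 3.80% of all genes were called, 2.02% higher and 1.78% lower. An unadjusted edgeR p under 0.05 was reached by 17 of the 41, beside 2910 of all 15866 genes. By sign 30 genes were higher and 11 lower, with a median log2 difference of 0.23 beside 0.01 over all genes. Ctsz differed most, at 22.5, 27.1 and 25.2 CPM in young and 51.4, 76.9 and 55.1 CPM in middle-aged pools, by 1.29 ± 0.18 (adjusted p = 0.00154). Ctss stood at 76.1, 96.9 and 116.8 CPM and at 185.1, 207.5 and 182.4 CPM, a difference of 0.99 ± 0.17 (adjusted p = 0.00521). Middle-aged pools were above young pools without overlap for both genes. Ctsh differed by 0.88 ± 0.20 (adjusted p = 0.026), Ctsd by 0.72 ± 0.18 (adjusted p = 0.044), Laptm5 by 0.70 ± 0.17 (adjusted p = 0.0404) and Grn by 0.57 ± 0.15 (adjusted p = 0.0446). For 15 of the 41 genes the naïve pools of the ages did not overlap, as for 17.1% of all genes.

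These age calls differed in how they held. Ctsz and Ctss kept the call without any single pool of the 12 (adjusted p up to 0.0107 and 0.0291). Ctsh lost it without young naïve pool 1, 2 or 3 or middle-aged naïve pool 2, and Ctsd, Laptm5 and Grn each lost it for 9 of the 12 pools left out singly (adjusted p up to 0.148, 0.136 and 0.162). Young naïve pools 1 and 2, middle-aged naïve pool 2, all young injured pools and middle-aged injured pool 1 were among the 9 for each of these genes, joined by young naïve pool 3 and middle-aged naïve pool 3 for Ctsd, by young naïve pool 3 and middle-aged injured pool 2 for Laptm5, and by middle-aged naïve pool 3 and middle-aged injured pool 2 for Grn. In a fit of the 6 naïve pools alone, Ctsz was the only gene of the set called (adjusted p = 0.0306). Myeloid markers differed with age too: 5 of 8 (Ptprc, Itgam, Fcer1g, Tyrobp and Itgb2) were higher in middle-aged naïve tissue, with a median difference of 1.13. Of the 6 oligodendrocyte markers 3 were lower, and their sum was 86700 to 102000 CPM in young and 53010 to 60300 CPM in middle-aged naïve pools. The part of these cells in the age differences was not tested.

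**Figure D5:**
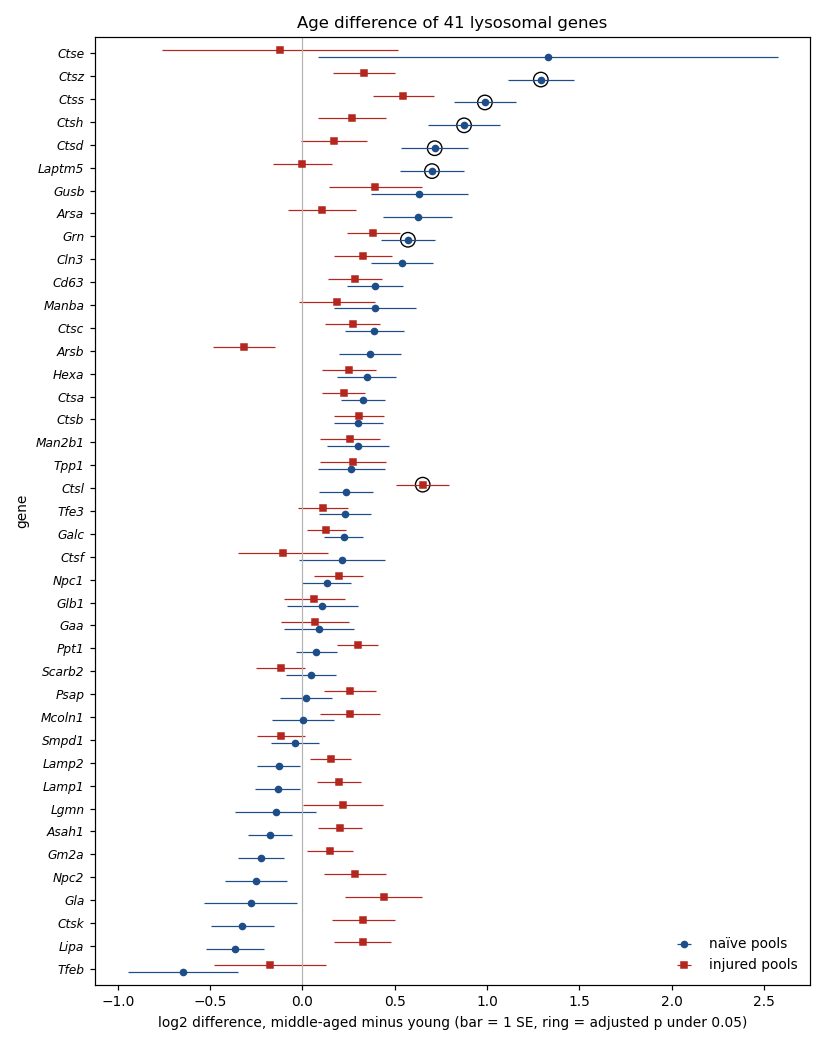
Log2 difference between middle-aged and young pools for each of the 41 genes, ordered by the naïve difference; blue circles are naïve and red squares injured pools, bars are 1 SE, and black rings mark an adjusted p under 0.05. Rings are on Ctsz, Ctss, Ctsh, Ctsd, Laptm5 and Grn among naïve pools and on Ctsl among injured pools.

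After injury 1 of the 41 genes was called, where 1.15% of all genes were. This was Ctsl: it measured 1150, 1293 and 1107 CPM in young and 2160, 1873 and 1545 CPM in middle-aged injured pools, a difference of 0.65 ± 0.15 (adjusted p = 0.0448), where 0.240% of all genes were higher and 0.908% lower. The call of Ctsl was lost when 1 of 7 pools was left out, which were any young injured pool, middle-aged injured pool 1 or 2, young naïve pool 1 or middle-aged naïve pool 3 (adjusted p up to 0.222), and with library totals (adjusted p = 0.0543). Ctss, at 0.55 ± 0.17 (adjusted p = 0.159), and Ppt1, at 0.30 ± 0.11 (adjusted p = 0.312), came next. By sign 34 genes were higher in middle-aged injured pools and 7 lower, with a median of 0.22 beside 0.00 over all genes. An unadjusted edgeR p under 0.05 was reached by 5 of the 41, beside 1527 of all 15866 genes. The pools did not overlap for 14 genes, as for 23.3% of all genes. Of the 6 oligodendrocyte markers 5 were lower with age after injury, with sums of 18250 to 20260 CPM in young and 7930 to 12450 CPM in middle-aged injured pools, and of the 6 astrocyte markers Gja1 was lower (-0.78 ± 0.12, adjusted p = 0.00524). The 8 myeloid markers had log2 differences from -0.03 (Aif1) to 0.62 (Spi1) in this comparison and were not called by edgeR (lowest adjusted p = 0.262, for Itgb2). The 4 markers of recruited monocytes were not called either, with log2 differences from 0.74 to 1.84. They summed to 73.9 to 112.6 CPM in young and 163.0 to 206.4 CPM in middle-aged injured pools. Of the 4 markers of oligodendrocyte progenitors, Gpr17 and Neu4 were lower. The part of these cells in the age differences after injury was not tested.

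The difference of the injury effects between the ages was tested directly. None of the 41 genes was called by edgeR, where 0.139% of all genes were (0.0567% with a larger and 0.0819% with a smaller effect in middle-aged mice). An unadjusted edgeR p under 0.05 was reached by 9 of the 41, beside 1574 of all 15866 genes. Ctsz had the lowest p, with a difference of -0.96 ± 0.25 on the log2 scale (middle-aged minus young) (adjusted p = 0.147), and over other settings its adjusted p ran from 0.00658 to 0.341. Of the 41 genes, DESeq2 called Ctsz alone (-0.95, adjusted p = 0.0298). Over all 15866 genes it called 103 with a larger and 151 with a smaller effect in middle-aged mice. Lipa, whose effect was larger in middle-aged mice by 0.69 ± 0.22 (adjusted p = 0.259), and Laptm5, at -0.70 ± 0.24 (adjusted p = 0.296), came next. On simulated data, this comparison recovered 26% of genes that differed by 1 and 71% of genes that differed by 2 on the log2 scale. Of its calls 9.35% were false. For each size 100 of 15536 genes were changed, in the young injured pools alone.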

How the data were processed

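RNA-seq was performed on 12 pools of laser-captured white matter. Per the labels and the study's methods, the authors aligned reads with TopHat2 2.0.10 and Bowtie 1.1.2 after FastQC 0.11.4 and counted them per Ensembl gene on GRCm38 with featureCounts; the deposited values are raw counts for each pool, and the strand setting and annotation release were not given in the sources used here. The 41 members and all lists were chosen with earlier results of these data known. All 15866 genes that passed edgeR's filterByExpr were fitted in R 4.3.3 with edgeR 4.0.16 (TMM scaling, 1 coefficient per group, quasi-likelihood F test, two-sided), with Benjamini-Hochberg adjustment over all of them and a threshold of 0.05. The injury effect at each age, the age effect without and with injury, and the difference of the injury effects were tested. Exact permutation of 3 against 3 pools cannot give a p under 0.1 and was not used for calls. Alternatives were other scalings, DESeq2 1.42.0, other filters, a replicate block, fits of the compared pools alone and leaving out each pool; the fit was tested on simulated data. Levels per kilobase use 1 main transcript per gene (GENCODE M21). Each of the 41 genes is named; of the age comparisons, the genes called or, with fewer than 3, those with the lowest p up to 3; of each pathway list, the called genes with the 2 highest and the 2 lowest fold changes in young mice at a mean log2 CPM of at least 1. Of the members, 12 share exonic bases with another counted gene. The marker lists of homeostatic microglia and Schwann cells are not reported here.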

Additional observations from a re-analysis of the deposited data

How the results depend on the processing

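Over all settings tried, 34 of the 41 genes in young mice (all but Arsa, Ctsk, Lamp1, Mcoln1, Npc1, Scarb2 and Tfeb) and 36 in middle-aged mice (all but Arsa, Ctsk, Mcoln1, Npc1 and Tfeb) kept the direction and the call of their injury effect. The young log2 value of Npc1 turned positive with relative log expression factors (0.007), DESeq2 (0.007) and no filter (0.004). It did so with the replicate block (0.004) and library totals (0.193) too. With library totals Scarb2 (0.169) and Mcoln1 (0.179) turned as well. Under that scaling 2 of the 41 genes fell in young mice, where 3236 of all 15866 genes fell. Leaving out single pools, the young values ran from -0.12 to 0.157 for Npc1, -0.013 to 0.165 for Arsa, -0.148 to 0.15 for Scarb2 and -0.09 to 0.05 for Mcoln1, and the middle-aged values from -0.097 to 0.157 for Ctsk and -0.007 to 0.132 for Npc1. Genes lower after injury in middle-aged mice numbered 2 to 4, the highest without middle-aged naïve pool 1, where 4620 of 16245 genes fell. With age, 2 to 8 genes were higher and 0 to 1 lower in naïve tissue, and 0 to 1 higher in injured tissue. Of all 16222 to 16301 genes tested in these fits, 136 to 484 were higher and 125 to 316 lower with age in naïve tissue. In injured tissue 6 to 120 of them were higher. Fits of the compared pools alone gave 1 gene higher with age in naïve and 2 in injured tissue, where 26 of 14401 and 325 of 15048 genes were higher. No filter gave 2 in injured tissue, where 121 of 27172 genes were higher, and library totals gave 0, where 32 of 15866 were. The difference of the injury effects had 1 gene called with a smaller effect in middle-aged mice by DESeq2 and 1 without a filter. Such calls numbered 151 of all 15866 genes by DESeq2 and 248 of 27172 without a filter. The cause was not tested. The replicate numbers are shared by the groups, but same-numbered pools did not deviate together (r -0.113 to 0.153, with 2 of 18 pairs over 0.1); the replicate block left the 32 and 33 genes called higher as they were in number, while Grn lost its age call in naïve tissue (adjusted p = 0.0512) and Arsa was called in middle-aged mice (-0.409, adjusted p = 0.0418), as it was with upper quartile factors (-0.474, adjusted p = 0.0349). With 3 pools per group, the fit recovered 58% of simulated injury effects of 1 and 89% of 2 on the log2 scale, and 5.16% of its calls were false. For each size 100 of 15536 genes were changed, in the young injured pools alone. Injury called 54.6% and 58.5% of all genes in the data, so these shares do not give the power of the injury comparisons.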
